A study of Mus musculus with 6 samples.

Results

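Major histocompatibility complex (MHC) class I molecules show fragments of a cell's own proteins to CD8 T cells and natural killer cells. The 10 genes described here encode 2 classical class I heavy chains (H2-K1, H2-D1), the shared light chain (B2m), the peptide transporter and its partner (Tap1, Tap2, Tapbp), 3 inducible subunits of the immunoproteasome (Psmb8, Psmb9, Psmb10) and a transcriptional coactivator of class I genes (Nlrc5). They were taken by gene symbol from a list of names, which was chosen with earlier results of these data known. All 10 were among the 32245 symbols counted, and all 10 passed the filter on low counts that left 14378 genes for testing.

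The cells were wild-type primary cardiomyocytes from hearts of neonatal mice, and polyadenylated RNA was sequenced in bulk from 6 libraries. There were 2 treatments set against phosphate-buffered saline (PBS, 2 libraries): the growth factor BMP2 (2 libraries), and BMP2 together with dorsomorphin (BMP2+DM, 2 libraries), a kinase inhibitor used to assess how much of the BMP2 response runs through BMP receptors and canonical SMAD signalling. Dorsomorphin is also known to inhibit AMP-activated protein kinase, and no library received dorsomorphin alone. Doses, times and mouse strain are not given. The reference carries the H2 haplotype of C57BL/6, and reads of H2-K1 and H2-D1 from another haplotype may be counted incompletely, which bears on the levels, ranks and ratios of these 2 genes. The labels leave unsaid whether the paired libraries of a group are separate cultures or animals, and the p-values therefore reflect the spread between these libraries only, which may be technical.

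In the class I pathway, the proteasome cuts proteins into peptides, and the Tap1-Tap2 transporter carries these into the endoplasmic reticulum. Tapasin, the product of Tapbp, holds the empty heavy chain and B2m at the transporter until a peptide binds. Interferons raise most of these genes through STAT and IRF factors. Nuclear factor kappaB (NF-kB) acts on class I promoters as well, and Nlrc5 is brought to class I promoters by the RFX, NF-Y and CREB/ATF factors of the SXY module. Cardiomyocytes are known for low class I levels.

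The sequences before the start sites of the 3 genes of the class I molecule itself show the elements through which these factors are known to act. They were taken from RefSeq (GRCm38.p6), 5′ to 3′ on the strand of the gene, with capitals for matches to the kappaB consensus, to the interferon-stimulated response element (ISRE) and to a shorter IRF core. H2-K1 is shown from 200 bases before its start at chr17:34000348-34000547 (minus strand) and B2m at chr2:122147487-122147685 (plus strand). For H2-D1, where GENCODE places an exon over the same bases, only the 29-base stretch with the matches is shown, at chr17:35262923-35262951 (plus strand).
H2-K1: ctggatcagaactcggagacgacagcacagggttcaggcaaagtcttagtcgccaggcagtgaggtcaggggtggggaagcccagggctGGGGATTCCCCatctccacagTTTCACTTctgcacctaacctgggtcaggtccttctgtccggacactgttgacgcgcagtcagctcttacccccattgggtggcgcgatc
H2-D1: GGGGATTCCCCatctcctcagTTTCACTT
B2m: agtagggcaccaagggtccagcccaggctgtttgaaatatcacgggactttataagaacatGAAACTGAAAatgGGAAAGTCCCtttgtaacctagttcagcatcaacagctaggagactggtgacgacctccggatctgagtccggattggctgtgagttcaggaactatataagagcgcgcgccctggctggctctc

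In H2-K1 and H2-D1 the first run of capitals is the kappaB match, read on both strands as 4 overlapping matches to one site, and the second is the IRF core on the minus strand. The 2 stretches from kappaB match to IRF core were 29 bases each and identical at 28. In B2m the order was the reverse: an ISRE, which contains its IRF core, lay before the kappaB match.

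RefSeq windows of 300 bases, 250 before and 50 after the start, were matched for 8 of the 10 genes (Tap2 and Nlrc5 were not matched), and motifs were searched on both strands. The kappaB consensus was found in H2-K1, H2-D1 and B2m, and in 8.46% of all 32851 windows. The ISRE, 2 runs of GAAA with any 2 bases between them, was found in B2m, and in 3.44% of all windows. The shorter IRF core AANNGAAA, added after the class I sequences had been seen, was found in the same 3 class I genes as the kappaB consensus and in 23.9% of all windows. The STAT element GAS, spelled TTCNNNGAA, was found in Psmb8, and in 8.30% of all windows. As for H2-D1, the 200 bases before the RefSeq starts of Psmb8 and Tapbp lie wholly in GENCODE exons, so these windows may not be the promoters of every transcript. CCAAT, the NF-Y box, was found in 6 of the 8 genes and in 37.4% of all windows, and TGACG, a CREB/ATF core, in 5 of the 8 and in 20.8%. Psmb10 held a match to none of these 6 motifs.

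BMP2 against PBS asks which transcripts BMP2 changed. By edgeR's quasi-likelihood test with Benjamini-Hochberg adjustment over all tested genes, 8 of the 10 genes fell with BMP2, where 9.29% of all tested genes fell. They were H2-K1, H2-D1, B2m, Tap1, Tap2, Tapbp, Psmb8 and Nlrc5. Psmb10 rose, where 6.55% of all tested genes rose, and Psmb9 did not pass the threshold of 0.05. The median log2 fold change was -0.85 over the 10 genes and 0.0044 over all genes tested. In 9 of the 10 genes both BMP2 libraries lay below both PBS libraries, which held for 28% of all tested genes.

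BMP2+DM against BMP2 asks what adding dorsomorphin changed. Here 4 of the 10 genes rose, H2-K1, H2-D1, B2m and Tapbp, where 4.28% of all tested genes rose. None fell by edgeR's test, where 4.44% of all tested genes fell. The count of falls was 0 at an unadjusted p under 0.05 and 0 with DESeq2. In 6 of the 10 genes both BMP2+DM libraries lay above both BMP2 libraries, as in 25.4% of all tested genes. The median log2 fold change was 0.32, against 0.00035 over all genes tested.

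BMP2+DM against PBS gives what remained different with both agents. Of the 10 genes, 5 were lower than in PBS (B2m, Tap1, Tap2, Psmb8 and Nlrc5), where 11.5% of all tested genes were lower. None was higher by edgeR's test, where 9.38% of all tested genes were higher. At an unadjusted p under 0.05 that count was 1 (Psmb10), and DESeq2 gave 0. The comparisons share the BMP2 or the PBS libraries, so their fold changes are not independent of each other.

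**Figure D1:**
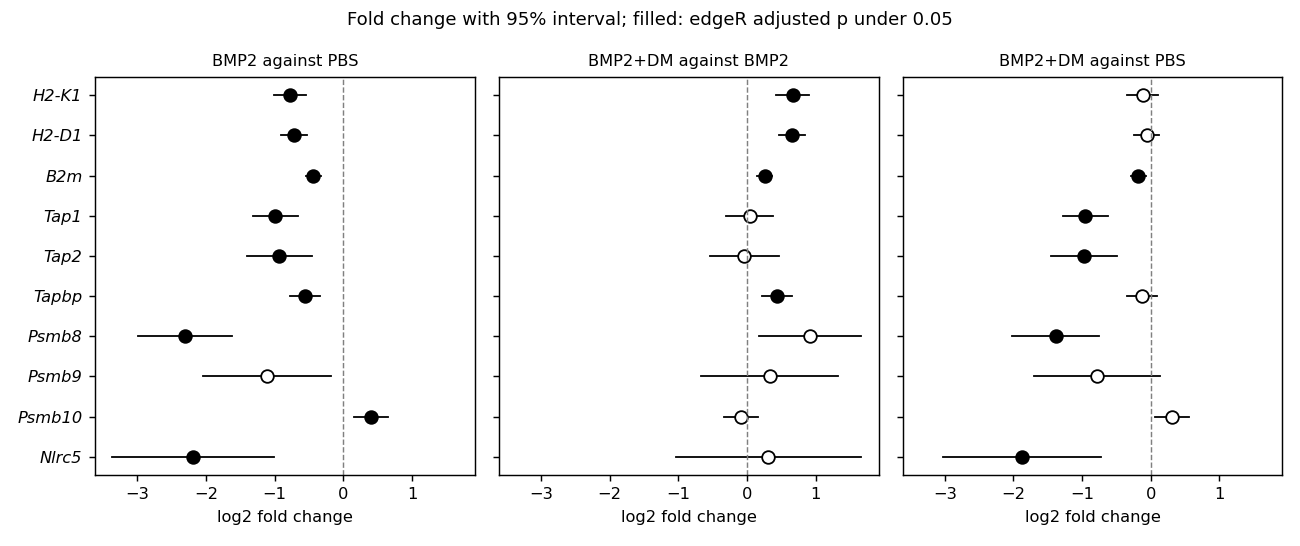
Log2 fold change of the 10 genes in the 3 comparisons (horizontal axis), with 95% intervals from the fit over all 6 libraries as lines. Filled points passed edgeR's test at an adjusted p under 0.05: 8 lower and 1 higher on the left, 4 higher in the middle and 5 lower on the right.

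The heavy chains fell with BMP2 and stood near the PBS level with BMP2+DM. H2-K1 (chromosome 17, 33996017 to 34000347 in GENCODE vM21, GRCm38) measured 65.3 and 70.1 CPM (counts scaled to a common library size) in PBS, 40.8 and 38.1 in BMP2, and 67.5 and 57.5 in BMP2+DM. H2-D1 (chromosome 17, 35262730 to 35267499) measured 90.3 and 87.6 CPM in PBS, 53.1 and 55.2 in BMP2, and 86.7 and 84.4 in BMP2+DM. For both genes the BMP2 libraries lay below all 4 others without overlap. BMP2 levels were 58.2% of PBS for H2-K1 and 60.9% for H2-D1, and BMP2+DM levels were 92.3% and 96.2%.

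The log2 fold change of H2-K1 with BMP2 was -0.78 ± 0.11 (SE, edgeR adjusted p = 7.02e-05), and that of H2-D1 was -0.72 ± 0.09 (edgeR adjusted p = 1.53e-05). With dorsomorphin added, H2-K1 rose by 0.66 ± 0.11 (edgeR adjusted p = 0.000811) and H2-D1 by 0.66 ± 0.09 (edgeR adjusted p = 0.000113). Against PBS, the BMP2+DM difference was -0.11 for H2-K1 (95% interval -0.34 to 0.11) and -0.06 for H2-D1 (-0.24 to 0.13), and neither passed the test. Within each library the log2 ratio of H2-K1 to H2-D1 counts, a measure chosen after the fold changes had been seen, lay between -0.55 and -0.32, and the groups overlapped. H2-D1 shares 4.64% of its 100-base windows with 9 other genes, mostly H2-Q1, while H2-K1 shares none.

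B2m, the light chain that every class I molecule needs, moved the same way over a smaller range. B2m (chromosome 2, 122147686 to 122153083) measured 351 and 357 CPM in PBS, 263 and 259 in BMP2, and 322 and 301 in BMP2+DM. The 3 groups did not overlap, and BMP2+DM lay between the others. B2m fell by 0.44 ± 0.05 on the log2 scale with BMP2 (edgeR adjusted p = 8.10e-06), rose by 0.26 ± 0.05 from BMP2 to BMP2+DM (edgeR adjusted p = 0.00405), and had a log2 fold change of -0.18 ± 0.05 in BMP2+DM against PBS (edgeR adjusted p = 0.0166). The rise was lost without BMP2 replicate 2 (0.25, edgeR adjusted p = 0.0528). The difference of BMP2+DM from PBS was lost without PBS replicate 1 (-0.20, edgeR adjusted p = 0.0543), PBS replicate 2 (-0.17, 0.0968) or BMP2+DM replicate 2 (-0.14, 0.153).

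**Figure D2:**
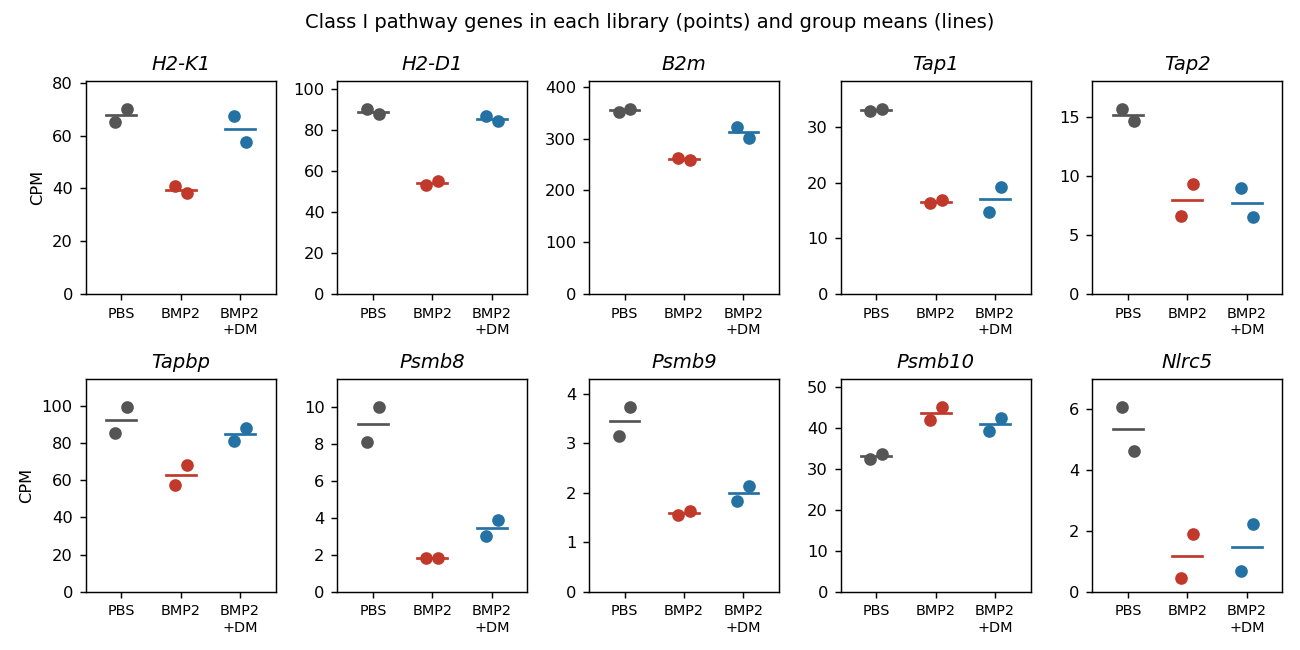
CPM of the 10 genes (vertical axes, each from 0) in the 2 libraries of PBS, BMP2 and BMP2+DM (points) with group means (lines). H2-K1, H2-D1, B2m and Tapbp show BMP2 as the lowest group. Psmb8 and Psmb9 also show BMP2 lowest, with BMP2+DM between BMP2 and PBS. Tap1, Tap2 and Nlrc5 show both treated groups low, and Psmb10 shows PBS lowest.

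Both subunits of the peptide transporter fell with BMP2 to about the same share of PBS and stood there with dorsomorphin as well. Tap1 (chromosome 17, 34187553 to 34197225) measured 32.8 and 33.2 CPM in PBS, 16.4 and 16.8 in BMP2, and 14.8 and 19.2 in BMP2+DM. Tap2 (chromosome 17, 34203527 to 34216321) measured 15.7 and 14.7 CPM in PBS, 6.63 and 9.35 in BMP2, and 8.995 and 6.50 in BMP2+DM. All 4 treated libraries lay below both PBS libraries for each gene, and BMP2 and BMP2+DM overlapped. Tap1 was at 50.2% of PBS in BMP2 and 51.5% in BMP2+DM, and Tap2 at 52.5% and 51.0%.

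Tap1 fell by 0.99 ± 0.15 on the log2 scale with BMP2 (edgeR adjusted p = 0.000179), and its log2 fold change was -0.96 ± 0.15 in BMP2+DM against PBS (edgeR adjusted p = 0.00019). Tap2 fell by 0.93 ± 0.22 (edgeR adjusted p = 0.00759), and its log2 fold change was -0.97 ± 0.23 in BMP2+DM against PBS (edgeR adjusted p = 0.00459). From BMP2 to BMP2+DM the difference was 0.04 for Tap1 (95% interval -0.31 to 0.38) and -0.04 for Tap2 (-0.55 to 0.46), and neither passed the test. The fall of Tap2 with BMP2 was lost without PBS replicate 1 (-0.88, edgeR adjusted p = 0.0711) or BMP2 replicate 1 (-0.70, 0.107), and its difference of BMP2+DM from PBS without BMP2+DM replicate 2 (-0.76, 0.0614).

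Tapbp, which encodes the bridge between transporter and heavy chain, was lowest in BMP2, like the heavy chains. Tapbp (chromosome 17, 33915899 to 33929292) measured 85.3 and 99.7 CPM in PBS, 57.6 and 68.0 in BMP2, and 81.3 and 88.1 in BMP2+DM. The BMP2 libraries were the lowest, and PBS and BMP2+DM overlapped. Tapbp fell by 0.56 ± 0.10 on the log2 scale with BMP2 (edgeR adjusted p = 0.000976) and rose by 0.43 ± 0.11 with dorsomorphin added (edgeR adjusted p = 0.0142). That rise was lost without BMP2 replicate 1 (0.32, edgeR adjusted p = 0.182) or BMP2+DM replicate 2 (0.38, 0.0927).

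The difference between transporter and heavy chain was measured within libraries as the log2 ratio of Tap1 to H2-D1 counts, a measure chosen after the fold changes had been seen. It was -1.46 and -1.40 in PBS, -1.70 and -1.72 in BMP2, and -2.55 and -2.13 in BMP2+DM. The 3 groups did not overlap. From BMP2 to BMP2+DM the mean ratio changed by -0.63 (two-sided exact permutation p = 0.333, the smallest that 2 against 2 libraries can give).

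Of Tapbp's exonic bases, 24.9% lie opposite the predicted gene Gm19412, of Psmb8's, 14.7% lie opposite Gm20496, and of Tap2's, 14.1% lie opposite Gm15821. Tap1 and Psmb9 also lie opposite each other, over 3.87% of Tap1's exonic bases and 5.79% of Psmb9's. The strand setting of the counting is not given in the sources used here, so reads of such partners cannot be told apart. Both Gm19412 and Gm15821 were themselves lower in BMP2 than in PBS.

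Of the 3 immunoproteasome subunits, 1 fell with BMP2, 1 rose and 1 did not pass the test. Psmb8 (chromosome 17, 34197721 to 34201454), the inducible chymotrypsin-like subunit, measured 8.07 and 10.003 CPM in PBS, 1.82 and 1.81 in BMP2, and 2.998 and 3.88 in BMP2+DM. It was counted 113 and 115 times in PBS, 20 and 19 times in BMP2, and 31 and 40 times in BMP2+DM. The 3 groups did not overlap, and the level was 20.1% of PBS in BMP2 and 38.1% in BMP2+DM. Psmb8 fell by 2.31 ± 0.33 on the log2 scale with BMP2 (edgeR adjusted p = 6.56e-05), and its log2 fold change in BMP2+DM against PBS was -1.39 ± 0.30 (edgeR adjusted p = 0.0027). The second call was lost without PBS replicate 2 (-1.23, edgeR adjusted p = 0.0563). BMP2+DM against BMP2 gave 0.92 ± 0.35, which did not pass (edgeR adjusted p = 0.128).

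Psmb9 (chromosome 17, 34181987 to 34187764) shares its divergent promoter region with Tap1 and was counted 17 to 44 times per library. It measured 3.14 and 3.74 CPM in PBS, 1.54 and 1.62 in BMP2, and 1.84 and 2.14 in BMP2+DM. These groups did not overlap, in the order PBS, BMP2+DM, BMP2. No comparison of Psmb9 passed: the log2 fold change with BMP2 was -1.11 ± 0.44 (edgeR adjusted p = 0.102), and its 95% interval ran from -2.04 to -0.18.

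Psmb10 (chromosome 8, 105935735 to 105938444), the inducible trypsin-like subunit, went the other way. It measured 32.5 and 33.6 CPM in PBS, 41.9 and 45.2 in BMP2, and 39.3 and 42.5 in BMP2+DM. Both PBS libraries lay below the 4 treated ones, and the treated groups overlapped. Psmb10 rose by 0.40 ± 0.12 on the log2 scale with BMP2 (edgeR adjusted p = 0.0277). The call rested on every library of the comparison: it was lost without PBS replicate 1 (0.37, edgeR adjusted p = 0.154), PBS replicate 2 (0.42, 0.103), BMP2 replicate 1 (0.45, 0.063) or BMP2 replicate 2 (0.34, 0.178). DESeq2 also gave an adjusted p of 0.0635.

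Each inducible subunit takes the place of a constitutive one in the core, and the ratio of the pair within a library needs no scaling between libraries. The constitutive subunits Psmb5, Psmb6 and Psmb7 passed the test in none of the 3 comparisons, with log2 fold changes between -0.13 and 0.09. Per exonic length, Psmb8 made up 2.04% ± 0.43 (SD, n = 2) of the Psmb8 and Psmb5 pair in PBS, 0.387% ± 0.0076 in BMP2 and 0.7999% ± 0.146 in BMP2+DM. Psmb9 made up 1.47% ± 0.17 of its pair with Psmb6 in PBS, 0.671% ± 0.0026 in BMP2 and 0.891% ± 0.073 in BMP2+DM. The BMP2 libraries held 20 and 19 counts of Psmb8 and 17 and 17 of Psmb9. At such low counts the small SDs in BMP2 can understate the uncertainty of these shares. Psmb10 made up 29.6% ± 1.2 of its pair with Psmb7 in PBS, 35.1% ± 0.28 in BMP2 and 33.2% ± 0.53 in BMP2+DM. These shares depend on the length used: with the longest transcript, the PBS share was 3.56% for Psmb8, 0.965% for Psmb9 and 31.3% for Psmb10, while changes of the log2 ratio between groups do not depend on it.

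The 3 groups did not overlap in any of the 3 ratios. BMP2 changed the log2 ratio by -2.41 for Psmb8 to Psmb5, by -1.14 for Psmb9 to Psmb6 and by 0.36 for Psmb10 to Psmb7. BMP2+DM against BMP2 gave 1.04, 0.41 and -0.12 in the same order. Each of these had a two-sided exact permutation p of 0.333, the smallest possible here.

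**Figure D3:**
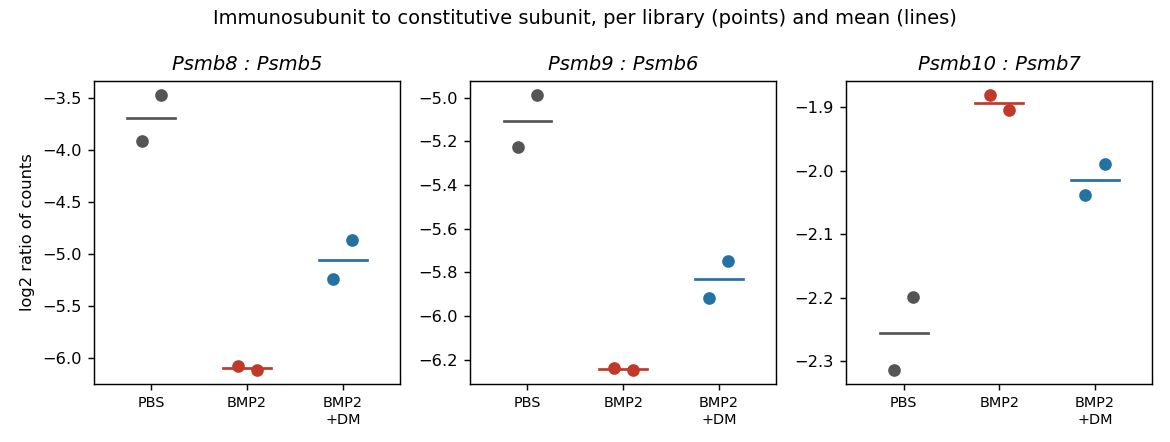
Log2 ratio of counts of each inducible subunit to the constitutive subunit it replaces (vertical axes, different ranges), in the 2 libraries of each group (points) with means (lines). PBS is highest and BMP2 lowest for Psmb8 and Psmb9, and the order is reversed for Psmb10.

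Nlrc5 (chromosome 8, 94434356 to 94527272), the class I coactivator, had the fewest counts for its length and the widest spread between libraries. It was counted 85 and 53 times in PBS, 5 and 20 times in BMP2, and 7 and 23 times in BMP2+DM. In CPM these were 6.07 and 4.61, then 0.454 and 1.91, then 0.677 and 2.23. All 4 treated libraries lay below both PBS libraries, and in each treated group replicate 1 was lower than replicate 2. Nlrc5 fell by 2.18 ± 0.56 on the log2 scale with BMP2 (edgeR adjusted p = 0.0117), and its log2 fold change in BMP2+DM against PBS was -1.87 ± 0.55 (edgeR adjusted p = 0.0204).

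The Nlrc5 values moved with single libraries. With BMP2 the log2 fold change was -1.97 without PBS replicate 1 (edgeR adjusted p = 0.134), -2.36 without PBS replicate 2 (0.0502), -1.48 without BMP2 replicate 1 (0.132) and -3.53 without BMP2 replicate 2 (0.00555). In BMP2+DM against PBS it was -1.66 without PBS replicate 1 (edgeR adjusted p = 0.178), -2.05 without PBS replicate 2 (0.0685), -1.26 without BMP2+DM replicate 1 (0.149) and -2.96 without BMP2+DM replicate 2 (0.00636). BMP2+DM against BMP2 gave 0.31 ± 0.64 (edgeR adjusted p = 0.835), with a 95% interval of -1.04 to 1.66, so neither a fall nor a rise of Nlrc5 with dorsomorphin was detectable in these libraries.

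Levels can be ranked between genes only per length, here as mean CPM per kilobase of exon over the 2 libraries of a group. In PBS the level per kilobase was 412 for B2m, 34.5 for H2-D1, 25.5 for Tapbp, 23.04 for H2-K1, 19.4 for Psmb10, 6.03 for Tap1, 4.02 for Tap2, 2.67 for Psmb8, 0.940 for Psmb9 and 0.629 for Nlrc5. Of these neighbours, only Tapbp and H2-K1 overlapped between libraries. In BMP2 Psmb10 stood second at 25.5, above H2-D1 at 21.0, and no neighbours overlapped. In BMP2+DM H2-D1 was again second at 33.2, and Psmb10, Tapbp and H2-K1 followed at 23.99, 23.3 and 21.3 with overlapping libraries. With the longest transcript as the length, H2-K1 stood above Tapbp and Psmb8 above Tap2 in PBS.

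Other genes of the pathway were counted in lists. Over all tested genes, 9.29% fell and 6.55% rose with BMP2, and 4.44% fell and 4.28% rose from BMP2 to BMP2+DM. Of 11 tested class I and class I-like genes, 3 fell with BMP2 and none rose (0 also at an unadjusted p under 0.05 and with DESeq2), with a median log2 fold change of -0.46. DESeq2 called 2 of the 11 lower. H2-Q4, a nonclassical heavy chain, measured 25.3 and 26.1 CPM in PBS, 10.1 and 9.35 in BMP2, and 10.8 and 14.9 in BMP2+DM. Its log2 fold change was -1.40 ± 0.18 with BMP2 (edgeR adjusted p = 2.62e-05) and -1.001 ± 0.18 in BMP2+DM against PBS (edgeR adjusted p = 0.000472). The others that fell with BMP2 were H2-T23, the Qa-1 heavy chain (-1.02 ± 0.32), and Fcgrt, the neonatal Fc receptor, which pairs with B2m (-0.51 ± 0.14). In BMP2+DM against BMP2 none of the 11 passed in either direction by edgeR or DESeq2, with 1 higher at an unadjusted p under 0.05.

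The general machinery around the class I genes mostly did not pass. With BMP2, 9.29% of all tested genes fell and 6.55% rose. Of 17 genes of peptide loading, trimming and entry into the endoplasmic reticulum, 1 fell with BMP2 (Calr, the chaperone calreticulin, -0.17 ± 0.05) and 1 rose (Tpp2, a cytosolic peptidase, 0.26 ± 0.09). DESeq2 called 1 of the 17 lower and 0 higher. With dorsomorphin added, 4 of the 17 fell, where 4.44% of all tested genes fell. These were Calr (-0.36 ± 0.05), Sec61a1 (-0.33 ± 0.06), Hspa5 (-0.25 ± 0.05) and Pdia3 (-0.22 ± 0.05). Calr and Pdia3 belong to the peptide-loading complex, and in this comparison they moved opposite to H2-K1, H2-D1, B2m and Tapbp.

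Among proteasome genes outside the 10, the 16 other core and assembly genes had 2 that rose with BMP2 (Psmb1 and Psmg3) and none that fell. DESeq2 called 0 of these 16 in either direction. Among all tested genes, 6.55% rose and 9.29% fell. The 18 tested genes of the 19S regulatory particle had 1 that fell (Psmd8) and 1 that rose (Psmd6), where DESeq2 called 1 lower and 0 higher. Psme1 and Psme2, the interferon-inducible activator, did not pass in any comparison, with log2 fold changes with BMP2 of -0.10 ± 0.10 and -0.19 ± 0.14. Psme4, a different activator, rose with BMP2 (0.41 ± 0.06, edgeR adjusted p = 0.000147) and fell with dorsomorphin added (-0.32 ± 0.06, edgeR adjusted p = 0.00271).

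Regulators of the class I genes were in 3 lists. Beside them, 9.29% of all tested genes fell with BMP2 and 6.55% rose. Of 16 tested interferon-pathway, STAT and IRF genes, 5 fell with BMP2, among them Irf7, Stat2 and Irf1, and none rose (0 also at an unadjusted p under 0.05 and with DESeq2), and the list's median log2 fold change was -0.22. Stat2, a partner of Irf9 in the interferon-response complex, measured 70.8 and 65.2 CPM in PBS, 27.6 and 29.6 in BMP2, and 23.3 and 29.5 in BMP2+DM. Irf1, a direct activator of class I, Tap1 and Psmb9 promoters, measured 38.1 and 32.8 CPM in PBS, 24.4 and 24.3 in BMP2, and 22.5 and 23.4 in BMP2+DM. For both genes all treated libraries lay below PBS.

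The log2 fold change with BMP2 was -1.25 ± 0.13 for Stat2, -0.54 ± 0.14 for Irf1, -2.87 ± 0.26 for Irf7 and -0.95 ± 0.13 for Irf9. In BMP2+DM against BMP2, none of the 16 passed by edgeR or DESeq2, with 1 lower and 1 higher at an unadjusted p under 0.05. Stat2 had -0.11 ± 0.14 and Irf1 -0.09 ± 0.14 there. In BMP2+DM against PBS 6 of the 16 were lower, Jak2 among them (-0.47 ± 0.12), where 11.5% of all tested genes were lower. The interferon genes Ifnb1 and Ifng were listed at 0 counts in all 6 libraries.

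NF-kB pathway genes fell with BMP2 in 5 of 6 cases, where 9.29% of all tested genes fell. They were Nfkb2 (-0.51 ± 0.11), Tnfaip3 (-0.76 ± 0.18), Relb (-0.59 ± 0.17), Nfkbia (-0.32 ± 0.09) and Nfkb1 (-0.25 ± 0.08), and DESeq2 called 3. Rela did not pass, with 64.2 and 60.7 CPM in PBS and 55.3 and 59.5 in BMP2. None of the 6 passed in BMP2+DM against BMP2, by edgeR, by DESeq2 or at an unadjusted p under 0.05. The 8 factors of the SXY module that recruit Nlrc5 had no gene past the threshold in any comparison by edgeR or DESeq2. At an unadjusted p under 0.05, 2 of the 8 were lower in BMP2+DM against BMP2 and none in the other comparisons.

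Of 11 genes (class II genes, which present peptides from outside the cell, and their regulator Ciita), 3 passed the filter on low counts (H2-DMa, H2-Eb1 and Ciita). None passed the test in any comparison by edgeR or DESeq2, and their log2 fold changes with BMP2 were 0.79 ± 0.28, 0.73 ± 0.56 and 1.08 ± 0.88. The 95% intervals of H2-Eb1 (-0.45 to 1.91) and Ciita (-0.78 to 2.94) included 0. H2-Eb1 was counted 12 to 28 times per library and Ciita 3 to 12 times, so no direction can be read for either. At an unadjusted p under 0.05 the count with BMP2 was 1 higher.

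**Figure D4:**
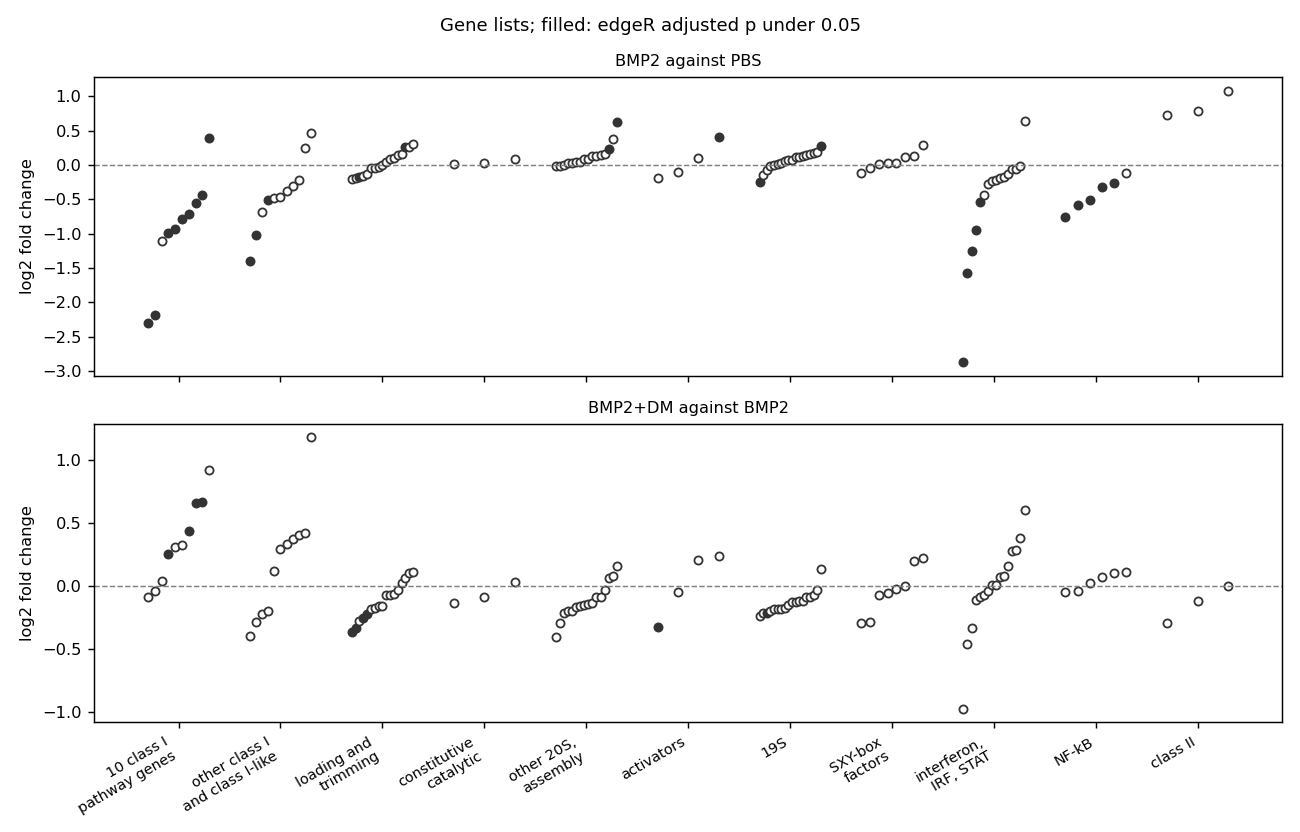
Log2 fold change of each tested gene (points, sorted within a list) in the 10 genes and in the other pathway lists, for BMP2 against PBS (top) and BMP2+DM against BMP2 (bottom). Filled points passed edgeR's test: 5 of 16 interferon-pathway and 5 of 6 NF-kB genes at the top, and none of either at the bottom. Over all tested genes, 9.29% fell at the top, and 4.44% fell and 4.28% rose at the bottom.

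Of the 10 genes, 7 lie within 1 stretch of chromosome 17, the MHC, from the start of Tapbp at 33915899 to the end of H2-D1 at 35267499. Among 63 other tested genes between these ends, 5 fell with BMP2 (7.94%) and 3 rose (4.76%), against 9.29% and 6.55% of all tested genes. The 5 that fell were Clic1, Tnf, Tnxb, Gm15821 and Gm19412, named after their values were seen. Gm19412 lies opposite 24.9% of Tapbp's exonic bases, and Gm15821 opposite 14.1% of Tap2's. Their counts may thus not be separate from those of Tapbp and Tap2. From BMP2 to BMP2+DM, 1 of the 63 fell (Notch4, 1.59%) and 2 rose (3.17%), against 4.44% and 4.28% of all tested genes. This comparison with neighbours was added after the data had been seen.

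Among the 5 genes outside the pathway whose profile over the 6 libraries was most like the mean profile of the 10, by root-mean-square difference of centred log2 CPM, were Lmcd1 (0.071), Lgr6 (0.072), Pkp2 (0.072) and Ypel2 (0.074). Pkp2 encodes the desmosomal plakophilin of cardiomyocytes. The 10 genes themselves lay 0.096 (Psmb9) to 0.848 (Nlrc5) from their own mean profile, so the mean describes few of them closely.

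In bulk samples, fewer cells of a type and less RNA per cell cannot be told apart. Marker lists of other cells moved with the treatments as well. For the counts below, 9.29% of all tested genes fell with BMP2, and 4.44% fell from BMP2 to BMP2+DM. Summed CPM of 11 macrophage markers was 122 to 138 in PBS, 87.5 to 91.8 in BMP2 and 81.6 to 86.4 in BMP2+DM. With BMP2, 2 of 7 tested macrophage markers fell (Lyz2 and Mertk). The log2 fold change was below 0 in 4 of the 7 and above 0 in 3, so the sum does not describe every marker. Summed CPM of 10 leukocyte markers was 23.8 to 33.0, 19.7 to 21.3 and 15.05 to 18.6 in the same order, and that of 12 endothelial markers 445 to 448, 385 to 388 and 247 to 259. In the step from BMP2 to BMP2+DM, in which H2-K1, H2-D1, B2m and Tapbp rose, all 3 sums were lower. The single markers were less uniform. Of 12 tested endothelial markers 5 fell, and 11 had a log2 fold change below 0. Of 7 tested macrophage markers 1 fell (0 with DESeq2), with 4 below 0 and 3 above. Of 5 tested leukocyte markers none passed by edgeR or DESeq2, with 2 below 0 and 3 above. At an unadjusted p under 0.05, 1 of these 5 was lower.

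Summed CPM of 11 cardiomyocyte markers was 33313 to 33874 in PBS, 24946 to 25112 in BMP2 and 27830 to 28191 in BMP2+DM. Of these 11, 10 fell with BMP2 and 5 rose from BMP2 to BMP2+DM. Over all tested genes, 9.29% fell and 6.55% rose with BMP2, and 4.44% fell and 4.28% rose from BMP2 to BMP2+DM. Epicardial and mesothelial markers had the same order of groups, with sums over 10 genes of 272 to 288, 205 to 212 and 235 to 248, and 6 of 10 fell and 1 rose with BMP2, and 1 fell and 3 rose from BMP2 to BMP2+DM. Smooth muscle and pericyte markers (9 genes) had this order too, with sums of 3225 to 3274 in PBS, 2049 to 2111 in BMP2 and 2139 to 2241 in BMP2+DM, and 4 of 9 fell and 2 rose with BMP2, and 2 fell and 3 rose from BMP2 to BMP2+DM. The sum of 10 fibroblast markers was 12816 to 13664 in PBS, 13796 to 13995 in BMP2 and 12024 to 12525 in BMP2+DM, without overlap. Of these 10, 5 fell and 2 rose with BMP2, and 5 fell and 4 rose from BMP2 to BMP2+DM. The defining T cell and dendritic cell genes Cd3e and Flt3 had 1 and 0 counts in all libraries together, and Ptprc, the common leukocyte antigen, had 22. The macrophage genes Csf1r and Adgre1 had 1082 and 294, and the endothelial genes Pecam1 and Cdh5 had 2936 and 3864. Summed CPM of 7 dendritic cell markers was 14.3 to 18.8 in PBS, 12.0 to 13.6 in BMP2 and 9.03 to 11.4 in BMP2+DM. Of these markers, Flt3, Ccr7 and Cd209a had no counts in any library, and Itgax had 11 in all libraries together. Only 1 of the 7 passed the filter on low counts, so this sum rests on few genes. The part of these cells in the results was not tested.

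Gene counts ran from 10106667 to 14366042 per library. PBS replicate 1 and BMP2 replicate 1 held 1.31% and 2.10% of their gene counts on ribosomal-repeat models, against 0.0702% to 0.0928% in the other 4. Without these 2 libraries, 1 library was left in PBS and in BMP2, and its spread was taken from the BMP2+DM pair. Then 4 of the 10 genes fell with BMP2 (H2-K1, H2-D1, B2m and Psmb8), 1 rose from BMP2 to BMP2+DM (H2-D1) and 2 were lower in BMP2+DM than in PBS (Tap1 and Psmb8). The log2 fold change with BMP2 was then -0.99 for Tap1 and -0.55 for Tapbp (edgeR adjusted p = 0.0713 and 0.056), and that of H2-K1 from BMP2 to BMP2+DM was 0.71 (edgeR adjusted p = 0.0551).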

How the data were processed

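Gene-level read counts of 6 mouse libraries were analysed, 2 each of PBS, BMP2 and BMP2+DM, grouped by their labelled treatment. The authors deposited whole-number counts per gene symbol, made with FastQC, Trimmomatic, STAR, HTSeq and DESeq2 on mm10 per the submitters' processing notes. The sources used here give neither annotation nor strand setting. Summary lines that name no gene held 53.8% to 54.2% of each file and were left out. Gene counts were 10106667 to 14366042 per library.

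All libraries were fitted together by group with edgeR 4.0.16 in R 4.3.3 (TMM factors, filterByExpr with a minimum count of 10 and a minimum total of 15, quasi-likelihood F test, Benjamini-Hochberg adjustment over 14378 genes, threshold 0.05). Standard errors were derived from F, as the size of the log2 fold change over the root of F. CPM used TMM-scaled library sizes, and levels per length used exonic bases of GENCODE vM21, which held 97.5% of the symbols. Subunit ratios were tested by exact permutation. The procedure was tested on simulated data.

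Alternatives were DESeq2 1.42.0, other size factors, no filter, a replicate block, fits without single libraries or ribosomal-repeat models, and a test against a 1.5-fold change. All 10 genes are named. In each pathway list up to 4 genes with the smallest p with BMP2 are named, with Psmb5, Psmb6, Psmb7, Irf1 and Ciita always. A few genes that these rules name are not reported here. Other members of a list are named where a count of calls turns on them, after their values were seen. The genes and lists were chosen with earlier results of these data known.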

Additional observations from a re-analysis of the deposited data

How the results depend on the processing

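With BMP2, the count of class I pathway genes that fell (8) was 6 to 8 when single libraries were left out, 4 without the 2 libraries rich in ribosomal-repeat reads and 1 (Psmb8) against a minimum fold change of 1.5. The count that rose (1, Psmb10) was 0 with DESeq2, 0 without those 2 libraries, 0 against the minimum fold and 0 to 1 when single libraries were left out. From BMP2 to BMP2+DM the count that rose (4) was 1 without the 2 libraries, 0 against the minimum fold and 3 to 4 when single libraries were left out. The median log2 fold change there (0.32) was 0.26 to 0.46 when single libraries were left out. The count lower in BMP2+DM than in PBS (5) was 2 to 5 when single libraries were left out, 2 without the 2 libraries and 0 against the minimum fold. No called fold change of the 10 genes changed sign under any of these alternatives. Replicate numbers were treated as names: deviations of same-numbered libraries correlated at 0.025, -0.023 and -0.038 across genes for the 3 pairs of groups. A replicate block gave the same counts (8 lower and 1 higher with BMP2, 4 higher from BMP2 to BMP2+DM, 5 lower in BMP2+DM than in PBS). With the longest transcript as length, 6 of 10 genes kept their place in the order of levels in PBS, 10 in BMP2 and 7 in BMP2+DM. In the 200 bases before the start alone, CCAAT was found in 5 of 8 genes in place of 6, and the counts of the other 5 motifs were the same. Psmb9 and Nlrc5 had 5 to 85 counts per library. Whether depth or the spread between libraries set their precision was not tested.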
